A study of Homo sapiens with 4 samples.

Results

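The 40 genes described here encode proteins of DNA replication, S phase and mitosis. They were chosen by symbol, as the rows of a gene table of 26485 symbols that carry the 40 names, and all 40 were found. What was measured is the small RNA reads counted to these genes, taken here as fragments of their mRNAs. The position of the reads within the genes was not analysed. The data are total small RNA (sRNA) libraries of HCT116, a cell line from a human colon carcinoma. All 4 libraries come from its Drosha k.o. derivative, which lacks the nuclear nuclease that starts miRNA maturation. The CD95L group (n = 2 libraries) received the lentivirus pLenti-GIII-CMV-RFP-2A-Puro-CD95L, whose CMV promoter drives the mRNA of CD95L (gene symbol FASLG), the ligand of the death receptor CD95. According to the study's methods, the CD95L used in HCT116 cells was a mutant that cannot bind its receptor and has a stop codon behind the start codon. The vector group (n = 2 libraries) received the empty form of that virus, pLenti-GIII-CMV-RFP-2A-Puro. Both groups were selected with 3 µg/mL puromycin as pooled infected cells, and RNA was taken at 50 h, counted from plating in the methods and the treatment notes and from puromycin selection in another label. The step at which the duplicates parted was not given, so p-values measure only the spread between these libraries, which may be technical. The titles of both vector libraries carry the mark (# 2), whose meaning was not given, so that a batch and the group cannot be told apart.

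Proliferating cells license their replication origins in G1 phase by loading the MCM helicase, copy the DNA in S phase with the replicative polymerases and the sliding clamp PCNA, and segregate the copies in mitosis. Most of these genes are transcribed in waves. E2F factors drive the G1/S genes, and complexes that bind CHR elements (cell cycle genes homology region) and CCAAT boxes drive the G2/M genes. In a carcinoma line such as HCT116 most cells are cycling, so the population as a whole makes the proteins continually. A library of sRNAs does not measure the intact mRNA. Fragments of an mRNA enter it according to how much of the mRNA there is, how it is degraded and which ends the fragments carry.

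Each library held 22488145 to 25163566 reads counted to genes, and values are given as CPM (reads per 1000000 reads counted to genes). Counting alone therefore allows up to 0.119 to 0.133 CPM for a gene with no reads (3 counts per library). FASLG, on chromosome 1 from 172659103 to 172666876 (hg38), stood at 94.9 and 90.5 CPM in the CD95L libraries, against 1.16 and 2.94 CPM in the vector libraries. Its difference was 5.00 on the log2(CPM + 1) scale (limma, adjusted p = 3.55e-05), higher in the group labelled CD95L. DROSHA, the gene knocked out, stood at 10.1 and 13.6 CPM in CD95L cells and at 13.6 and 10.4 CPM in vector cells, and since both groups carry the knockout this does not check the labels. Of 10 epithelial and colon markers, 8 passed the filter on low values, and the summed level of the 10 was 146 and 151 CPM in CD95L cells, against 154 and 151 CPM in vector cells. KRT8 and KRT18, the keratins of simple epithelia, led it, whereas KRT20 was at 0.0437 to 0.441 CPM in the 4 libraries. Of the 8, 3 had a negative difference, among them KRT8 (-0.21) and KRT18 (-0.15). The other 5 had a positive one, the largest that of MUC2 (0.53). Of 9 fibroblast markers, 6 passed the filter, and the sum of the 9 was 66.7 and 69.7 CPM in CD95L cells, against 67.2 and 57.6 CPM in vector cells. COL1A2, a type I collagen gene, had 11.1 and 11.9 CPM in CD95L cells, against 4.58 and 4.97 CPM in vector cells (difference 1.12). By limma it had an adjusted p of 0.355, but it was called higher in CD95L cells by edgeR (adjusted p = 0.0161) and DESeq2 (adjusted p = 0.0209) on recovered reads. VIM, the most abundant fibroblast marker, went the other way, with 25.2 and 23.0 CPM in CD95L cells, against 31.3 and 30.0 CPM in vector cells (difference -0.33). Of the 6 fibroblast markers, 5 had a positive and 1 a negative difference. Of 7 leukocyte markers, 5 passed, all with a positive difference, and the sum of the 7 was 15.3 and 22.4 CPM in CD95L cells, against 15.1 and 14.3 CPM in vector cells. Of 4 endothelial markers, 3 passed, and the sum of the 4 was 44.6 and 67.1 CPM in CD95L cells, against 59.4 and 52.9 CPM in vector cells. The part of these markers in the values of the cell cycle genes was not tested.

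Every one of the 40 genes had reads in all 4 libraries, and none of the 40 passed the test between CD95L and vector cells. Most of the differences were small and negative. In 31 of 40 genes (77.5%) the CD95L mean was the lower one on the log2 scale, against 50.8% of the 16127 genes tested, and the median difference was -0.17, against -0.01 over all genes tested. The largest negative difference was that of RRM2, the regulated subunit of the enzyme that makes deoxynucleotides, and the largest positive one that of MCM10, an initiation factor (-0.56 and 0.30). All 40 genes passed the filter (a mean of at least 1 CPM). At an adjusted p of 0.05, limma called 0 of the 40 genes, where 0.0062% of all genes tested were called (0.0% lower and 0.0062% higher in CD95L cells). At an unadjusted p of 0.05, 1 member was lower in CD95L cells and 0 were higher, where 2.52% of all genes tested were lower and 2.85% higher. On the reads recovered from the CPM steps, edgeR called 0 members, where 0.397% of all genes were called lower and 0.0496% higher in CD95L cells. DESeq2 on these reads called 0 members, where it called 37 of all 16127 genes tested. In 14 of the 40 genes (35%) both CD95L libraries lay below both vector libraries, where 19.0% of all genes tested did so. In 1 gene, CCNE1, both lay above, where 16.0% of all genes did. Fewer cells in a phase of the cycle and less RNA of these genes per cell cannot be told apart in such bulk samples. The 40 genes were chosen with earlier results of these data known, so their counts and medians describe these genes and are not independent evidence.

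**Figure D1:**
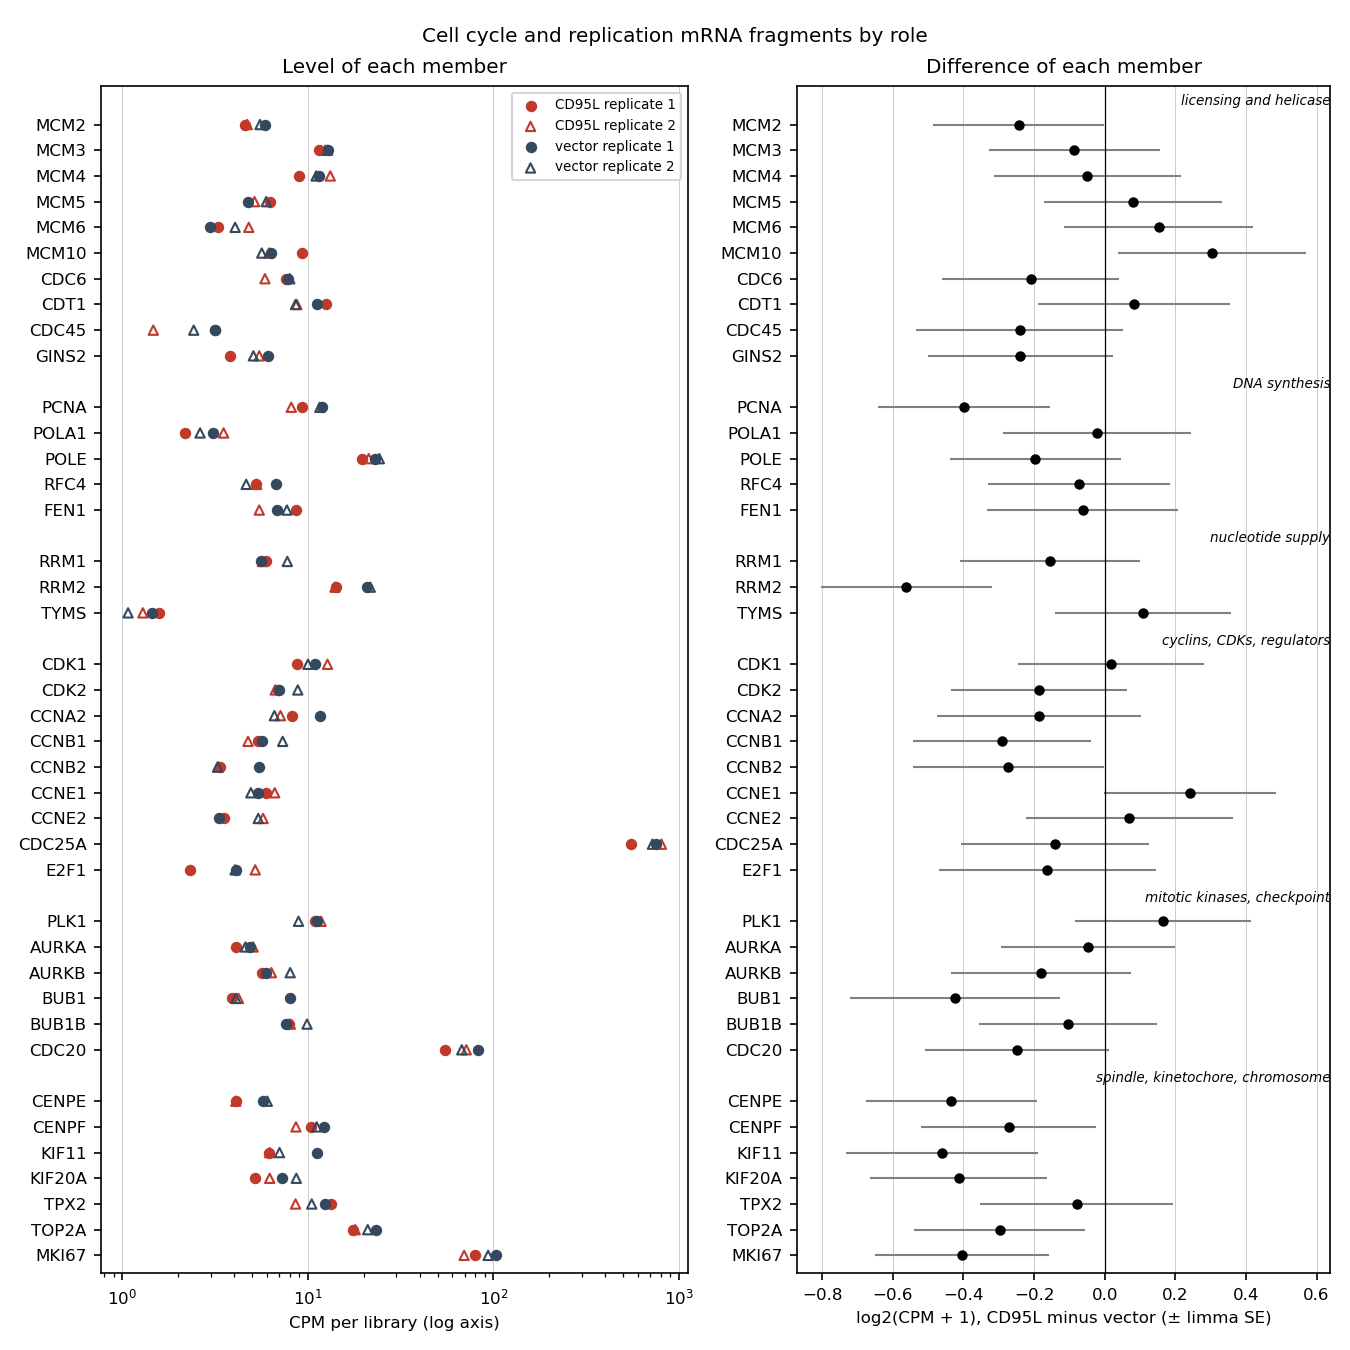
Left, CPM of each of the 40 genes in each library on a log axis, with CD95L libraries in red, vector libraries in dark blue, replicate 1 filled and replicate 2 open. Right, the difference of log2(CPM + 1), CD95L minus vector, with its limma standard error. The 40 points on the right lie between -0.56 and 0.30, 31 of them left of 0, and CDC25A lies far to the right of the other genes on the left panel.

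Many promoters of cell cycle genes carry motifs by which their transcription is known to follow the cycle. The promoters of RRM2, PCNA, MKI67 and CDC20 are printed because these are the members with the largest difference in the fit, the sliding clamp, the proliferation antigen Ki-67 and the most abundant of the mitotic kinase and checkpoint genes, and they were chosen after the values were seen. Each line gives the 250 bases before the RefSeq start site on GRCh38.p14, on the strand of the gene, 5′ to 3′. They lie at chr2:10122489-10122738 (plus strand) for RRM2, at chr20:5126623-5126872 (minus strand) for PCNA, at chr10:128126424-128126673 (minus strand) for MKI67 and at chr1:43358731-43358980 (plus strand) for CDC20. The window of RRM2 lies inside the span that GENCODE gives the gene, which begins further upstream. Capitals mark CHR letters (TTTGAA or TTCGAA), E2F letters (TTTCCCGC, TTTCGCGC, TTTGCCGC or TTTGGCGC) and CCAAT, each searched on both strands, so that a match on the other strand appears as its reverse complement.
RRM2: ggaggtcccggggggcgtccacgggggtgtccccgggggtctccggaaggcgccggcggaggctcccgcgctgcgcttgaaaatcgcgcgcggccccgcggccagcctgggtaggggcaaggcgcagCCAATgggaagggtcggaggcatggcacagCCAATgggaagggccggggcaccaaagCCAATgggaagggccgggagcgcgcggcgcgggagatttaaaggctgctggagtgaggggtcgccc
PCNA: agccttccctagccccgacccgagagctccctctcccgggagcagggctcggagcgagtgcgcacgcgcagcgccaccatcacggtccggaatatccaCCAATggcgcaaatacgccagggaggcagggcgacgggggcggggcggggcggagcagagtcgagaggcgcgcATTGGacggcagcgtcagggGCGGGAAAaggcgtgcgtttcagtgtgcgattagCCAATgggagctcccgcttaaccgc
MKI67: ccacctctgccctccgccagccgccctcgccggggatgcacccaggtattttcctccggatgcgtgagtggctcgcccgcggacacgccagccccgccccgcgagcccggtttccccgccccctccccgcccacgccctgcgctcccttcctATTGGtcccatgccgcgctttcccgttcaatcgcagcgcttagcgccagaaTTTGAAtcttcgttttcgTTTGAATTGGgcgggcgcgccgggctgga
CDC20: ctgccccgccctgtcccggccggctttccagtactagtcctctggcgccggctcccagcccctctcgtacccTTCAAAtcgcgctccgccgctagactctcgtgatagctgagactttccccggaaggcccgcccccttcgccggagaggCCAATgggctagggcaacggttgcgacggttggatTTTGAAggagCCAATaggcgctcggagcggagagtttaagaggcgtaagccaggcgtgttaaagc
RRM2 held 3 CCAAT boxes, the first bases of which lay 123, 93 and 66 bases before the start site, and neither CHR nor E2F letters. PCNA held CCAAT letters at 152, 79 and 25 bases and E2F letters at 59 bases before the start site. MKI67 held CHR letters at 47 and 29 bases and CCAAT letters at 98 and 24 bases before it, and the nearest CHR and CCAAT matches share bases. CDC20 held CHR letters at 178 and 65 bases and CCAAT letters at 100 and 55 bases before it.

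Of the 40 genes, 34 had a RefSeq promoter in the table used, scored over 300 bases (250 before to 50 after the start). CHR letters were in 12 of the 34 promoters (35.3%), against 16.6% of 27305 promoters of all genes, and in 10 of 15 G2/M members, against 2 of 19 G1/S members. E2F letters were in 13 of 34 promoters (38.2%), against 3.33% of all promoters, and in 1 of 15 G2/M members, against 12 of 19 G1/S members. CCAAT was in 26 of 34 promoters (76.5%), against 35.7% of all promoters, and in 13 of 15 G2/M members, against 13 of 19 G1/S members. The 3 motifs can overlap, as in MKI67. Members with CHR letters had a median difference of -0.26 (9 of 12 negative), against -0.18 for members without them. Members with E2F letters had a median of -0.14 (9 of 13 negative), against -0.25 without them, and those with CCAAT had -0.22 (22 of 26 negative), against -0.07 without it. Most members with CHR letters were G2/M members (10 of 12) and most with E2F letters G1/S members (12 of 13), so these splits largely follow the phases. A match is a run of letters only, and no binding was measured.

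**Figure D2:**
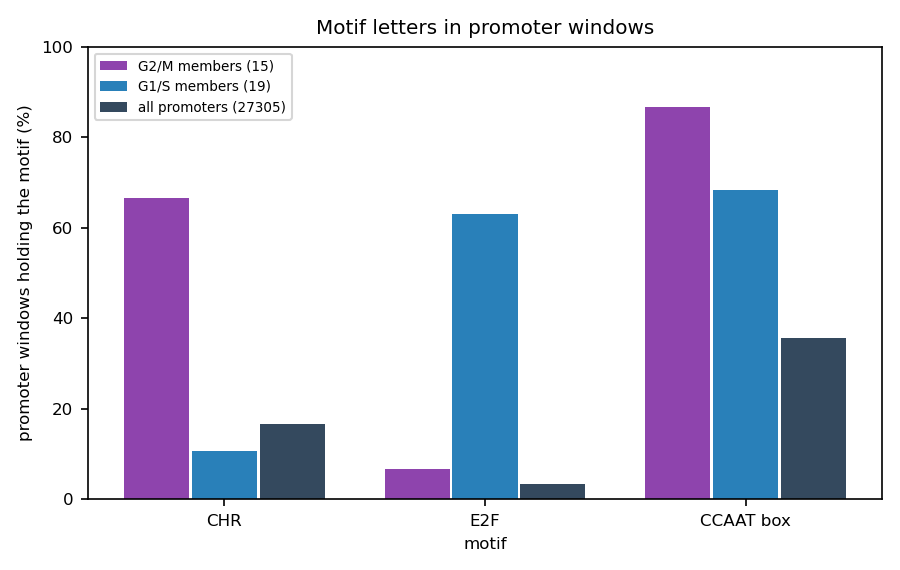
Share of promoter windows of 300 bases that held CHR, E2F or CCAAT letters, in percent, for 15 G2/M members, 19 G1/S members and all 27305 RefSeq promoters. CHR letters stood in 10 of the 15 G2/M windows and E2F letters in 12 of the 19 G1/S windows.

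The 10 genes of origin licensing and the replicative helicase were nearly level between CD95L and vector cells, and none passed the test. Of them, 6 had a negative and 4 a positive difference (median -0.07, and -0.04 without CD95L replicate 1), and in 3 (MCM2, MCM3 and CDC6) both CD95L libraries lay below both vector libraries (19.0% of all genes tested). Their summed level was 71.0 and 68.0 CPM in CD95L cells, against 72.5 and 69.1 CPM in vector cells. MCM3, a subunit of the MCM ring, was the most abundant, with 11.5 and 12.4 CPM in CD95L cells and 12.8 and 12.8 CPM in vector cells. The groups of MCM3 did not overlap, but the difference was only -0.09 (SE 0.24, limma, adjusted p = 0.980), and -0.04 without CD95L replicate 1. MCM2, another ring subunit, had 4.59 and 4.71 CPM in CD95L cells, against 5.86 and 5.52 CPM in vector cells (difference -0.24, SE 0.24, adjusted p = 0.944 by limma). MCM10, which joins the helicase when an origin fires, had 9.35 and 6.18 CPM in CD95L cells, against 6.34 and 5.64 CPM in vector cells. The groups of MCM10 overlapped, since CD95L replicate 2 lay below vector replicate 1, and without CD95L replicate 1 the difference of 0.30 (SE 0.27) was 0.04.

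The other ring subunits went both ways. MCM4 had a difference of -0.05, MCM5 of 0.08 and MCM6 of 0.15, with overlapping groups in each. CDC6 and CDT1, the loaders of the ring, had -0.21 and 0.08. For CDC6, the CD95L libraries had 7.60 and 5.87 CPM and the vector libraries 7.79 and 7.99 CPM, so that the gap between the groups was narrow. CDC45 and GINS2, which complete the active helicase, had -0.24 each, and in both the groups overlapped.

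The 5 genes of DNA synthesis all had a negative difference (median -0.07), and in 2 of them, PCNA and POLE, both CD95L libraries lay below both vector libraries (19.0% of all genes tested). Leaving out a library moved the median to between -0.25 and -0.14, with 3 or 4 of 5 negative. Their sum was 45.0 and 43.7 CPM in CD95L cells, against 51.5 and 50.9 CPM in vector cells. PCNA, the clamp that holds the polymerases on DNA, had 9.30 and 8.14 CPM in CD95L cells, against 11.96 and 11.60 CPM in vector cells. The means were 8.72 ± 0.824 CPM in CD95L cells and 11.8 ± 0.252 CPM in vector cells (SD, n = 2 each), a ratio of 0.740 and a difference of -0.40 (SE 0.24, limma, adjusted p = 0.923). The 95% counting interval (exact Poisson) of PCNA in CD95L replicate 1 reached up to 10.6 CPM and that in vector replicate 2 down to 10.3 CPM, so that these met. Intervals cover counting error only, since PCR copies are not independent molecules. POLE, the catalytic subunit of the leading strand polymerase, was the most abundant, with 19.6 and 21.3 CPM in CD95L cells and 22.9 and 24.3 CPM in vector cells (difference -0.20, SE 0.24, limma, adjusted p = 0.954).

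In the remaining genes of this role the groups overlapped. POLA1, the catalytic subunit of the primase polymerase, had a difference of -0.02. RFC4, a subunit of the clamp loader, had -0.07 and FEN1, the flap nuclease of the lagging strand, -0.06. POLA1 had the lowest level per length among the 40 genes, 0.520 CPM per kb of transcript.

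Of the 3 genes of nucleotide supply, RRM2 had the largest difference of all 40 members and did not pass the test. RRM2, on chromosome 2 from 10120698 to 10211725, had 14.1 and 14.0 CPM in CD95L cells, against 20.8 and 21.7 CPM in vector cells. These CPM are 323 and 315 reads in CD95L cells and 517 and 546 reads in vector cells. Both CD95L libraries lay well below both vector libraries, and the 2 libraries of each group were close together. The mean was 14.1 ± 0.0702 CPM in CD95L cells and 21.2 ± 0.670 CPM in vector cells (SD, n = 2 each), a ratio of 0.662. The 95% counting intervals reached from 12.5 to 15.7 CPM over both CD95L libraries and from 19.0 to 23.6 CPM over both vector libraries, and did not meet. They cover counting error only. Between the replicates of a group, such intervals overlapped in only 28 of the 40 genes in CD95L cells and 29 in vector cells. Intervals that do not meet therefore also occur within a group. The difference was -0.56 (SE 0.24), the only one among the 40 genes with an unadjusted p under 0.05, and it did not pass the test over all genes (limma, adjusted p = 0.910). With edgeR on recovered reads it did not pass either (adjusted p = 0.582). It lay between -0.53 and -0.59 whichever library was left out. RRM1, the large subunit that pairs with RRM2, had 5.98 and 5.69 CPM in CD95L cells, against 5.62 and 7.75 CPM in vector cells. Its groups overlapped (difference -0.15, limma, adjusted p = 0.969), and without vector replicate 2 the difference was 0.05. TYMS, which makes thymidylate, was the rarest member, with 1.57 and 1.29 CPM in CD95L cells and 1.44 and 1.07 CPM in vector cells, or 27 to 36 reads per library. Its difference was 0.11.

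The 9 cyclins, CDKs and regulators had 6 negative and 3 positive differences (median -0.16) and none passed the test. The median turned to 0.13, with 4 of 9 negative, without CD95L replicate 1. CDC25A, the phosphatase that activates CDK2 and CDK1, outweighed all other members, on chromosome 3 from 48157146 to 48188417. It had 553 and 806 CPM in CD95L cells, against 752 and 721 CPM in vector cells. CD95L replicate 1 was the lowest and CD95L replicate 2 the highest of the 4, so the vector libraries lay between the CD95L libraries. The difference was -0.14 (SE 0.27, limma, adjusted p = 0.970), and without CD95L replicate 1 it was 0.13. Per length CDC25A stood at 184 CPM per kb of its canonical transcript, followed by CDC20 at 42.0, PCNA at 8.03 and MKI67 at 6.81 CPM per kb. The median of the 40 genes was 2.67 CPM per kb, against 1.57 over the 13173 protein coding genes tested. In the annotation, no small RNA gene overlapped an exon of CDC25A. The snRNA pseudogene RNU7-128P and the pseudogenes SNRPFP4 and NDUFB1P1 lie opposite to it within introns. The position of the reads within the gene was not analysed.

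Most of the summed level of the 40 genes was CDC25A. The sum was 959 and 1219 CPM in CD95L cells, against 1253 and 1183 CPM in vector cells, which overlapped. Without CDC25A it was 406 and 413 CPM in CD95L cells, against 501 and 462 CPM in vector cells, which did not. The mean sum without CDC25A was 409 ± 5.28 CPM in CD95L cells and 482 ± 27.6 CPM in vector cells (SD, n = 2 each).

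Among the cyclins, the mitotic ones had negative differences and the E cyclins positive ones, none past the test. CCNB1, the cyclin B1 that takes CDK1 into mitosis, had 5.42 and 4.76 CPM in CD95L cells, against 5.66 and 7.31 CPM in vector cells. The groups did not overlap, with a gap narrower than the distance between the vector libraries (difference -0.29, SE 0.25, limma, adjusted p = 0.933). Leaving out vector replicate 2 gave -0.13, and leaving out vector replicate 1 gave -0.45. CCNB2, the related cyclin B2, had 3.36 and 3.29 CPM in CD95L cells, against 5.42 and 3.26 CPM in vector cells. Only vector replicate 1 was high, and without it the difference of -0.27 (SE 0.27, limma, adjusted p = 0.944) was 0.02. CCNA2, the cyclin A2 of S phase and G2, showed the same vector library high, with 8.17 and 7.11 CPM in CD95L cells and 11.7 and 6.60 CPM in vector cells. CCNE1, the cyclin E1 that opens S phase with CDK2, had 5.94 and 6.63 CPM in CD95L cells, against 5.38 and 4.93 CPM in vector cells. It was the only member whose CD95L libraries both exceeded the vector libraries (difference 0.24, SE 0.24, limma, adjusted p = 0.946). CCNE2, its close relative, differed by 0.07 and varied more between replicates than between groups. CDK1 and CDK2, the kinases that the cyclins activate, had differences of 0.02 and -0.19. E2F1, the transcription factor of the G1/S genes, had 2.31 and 5.20 CPM in CD95L cells, against 4.09 and 4.05 CPM in vector cells, the widest replicate ratio of any member in CD95L cells (2.25).

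The 6 mitotic kinases and checkpoint genes overlapped between the groups in every case. The difference was below 0 in 5 of them (median -0.14). The median was -0.06 without vector replicate 1, -0.08 without CD95L replicate 1 and -0.04, with 3 of 6 negative, without vector replicate 2. CDC20, the activator of the anaphase promoting complex, was the most abundant, with 55.2 and 71.5 CPM in CD95L cells and 82.7 and 67.6 CPM in vector cells. The difference was -0.25 (SE 0.26, limma, adjusted p = 0.949), and -0.06 without CD95L replicate 1. BUB1, a spindle checkpoint kinase, had 3.89 and 4.22 CPM in CD95L cells, against 8.03 and 4.09 CPM in vector cells. Vector replicate 1 alone set its difference of -0.42 (SE 0.30, limma, adjusted p = 0.931), which was -0.01 without that library. BUB1B, its checkpoint partner, had -0.10. Of the kinases, AURKA and AURKB had -0.05 and -0.18, and PLK1, with 10.9 and 11.8 CPM in CD95L cells and 11.2 and 8.90 CPM in vector cells, had 0.16.

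The 7 genes of spindle, kinetochore and chromosome structure had a median of -0.40, with 7 of 7 negative. Without vector replicate 1 it was -0.23, with 6 of 7 negative. In 6 of the 7, all but TPX2, both CD95L libraries lay below both vector libraries, where 19.0% of all genes tested did so. Their sum was 136 and 121 CPM in CD95L cells, against 176 and 158 CPM in vector cells. None passed the test. MKI67, the gene of the proliferation antigen Ki-67 on chromosome 10 from 128096659 to 128126423, had 79.2 and 69.6 CPM in CD95L cells, against 104 and 93.7 CPM in vector cells. At 1565 to 2586 reads per library it was one of the most deeply counted members. The mean was 74.4 ± 6.81 CPM in CD95L cells and 98.8 ± 7.10 CPM in vector cells (SD, n = 2 each), a ratio of 0.753. Its counting intervals, which cover counting error only, reached from 66.2 to 83.0 CPM over the CD95L libraries and from 90.0 to 108 CPM over the vector libraries. The groups did not overlap, and the difference of -0.40 (SE 0.25) had an adjusted p of 0.923 (limma).

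CENPE and KIF11 had the largest differences of this role. CENPE, a kinetochore motor, had 4.11 and 4.09 CPM in CD95L cells, against 5.74 and 6.04 CPM in vector cells. The 2 libraries of each group were close together, and the ratio of the means was 0.696 (difference -0.43, SE 0.24, limma, adjusted p = 0.923). With 92 to 152 reads per library, the counting intervals of the groups (3.30 to 5.02 CPM in CD95L cells and 4.84 to 7.08 CPM in vector cells) just met. KIF11, the motor that separates the spindle poles, had 6.16 and 6.23 CPM in CD95L cells, against 11.2 and 7.03 CPM in vector cells. The difference of -0.46 (SE 0.27, limma, adjusted p = 0.923) rested in large part on vector replicate 1 and was -0.16 without it.

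In KIF20A, a motor of cytokinesis, the CD95L libraries had 5.20 and 6.23 CPM and the vector libraries 7.22 and 8.66 CPM (difference -0.41). TOP2A, the topoisomerase that disentangles sister chromatids, had 17.6 and 18.0 CPM in CD95L cells, against 23.2 and 21.0 CPM in vector cells (difference -0.30). CENPF, a kinetochore protein of G2 and mitosis, had 10.4 and 8.63 CPM in CD95L cells, against 12.2 and 11.2 CPM in vector cells (difference -0.27). These 3 genes did not overlap between the groups. TPX2, a spindle assembly factor, had -0.08 with overlapping groups.

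By phase, assigned by textbook role, the 17 G2/M members had a median difference of -0.27 (15 negative, 7 with non-overlapping groups, all with CD95L below). The 23 G1/S members had a median of -0.09 (16 negative, 8 with non-overlapping groups, 7 of these with CD95L below), and -0.04 without CD95L replicate 1. Over all genes tested, groups did not overlap in 19.0% (CD95L below) and 16.0% (CD95L above). The difference between the phases was not tested. It narrowed without vector replicate 1, where the G2/M members had a median of -0.16 with 12 of 17 negative and the G1/S members one of -0.11. Vector replicate 1 was the highest library in 14 of the 40 genes and in 8 of the 17 G2/M members, whereas CD95L replicate 1 was the lowest library in 16 of the 40.

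**Figure D3:**
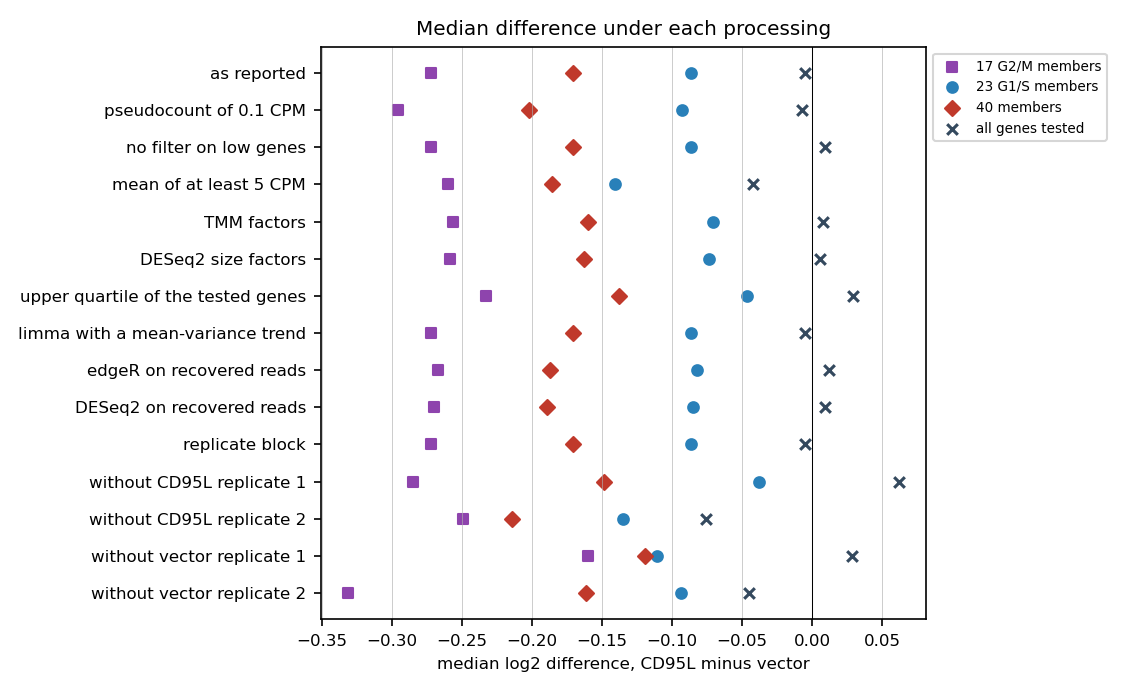
Median log2 difference, CD95L minus vector, of the 17 G2/M members, the 23 G1/S members, the 40 genes and all genes tested, under the processing reported and each alternative (rows). The median of the 40 genes is negative in every row and that of the G2/M members lies closest to 0 without vector replicate 1, at -0.16.

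The reads behind a member limit how far the values can be read. The median member had 150.5 and 140.0 reads in the CD95L libraries, against 177.0 and 194.5 reads in the vector libraries. All 40 genes together took 0.0959% and 0.122% of the gene reads in CD95L cells and 0.125% and 0.118% in vector cells. The higher replicate of a member exceeded the lower by a median ratio of 1.17 in CD95L cells and 1.19 in vector cells. The largest ratio was 2.25 in CD95L cells (E2F1) and 1.96 in vector cells (BUB1). The 95% counting intervals of the replicates overlapped in 28 of 40 genes in CD95L cells and in 29 of 40 in vector cells. On a log2 scale both median ratios exceed the size of the median difference of -0.17. They are ratios of single genes, however, and do not measure the spread of a median over 40 genes.

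Sharing of reads with other genes could touch some members. A pair, FEN1 with FADS2 and BUB1B with PAK6, share exonic bases with another gene on the same strand, and 11 share exonic bases with a gene on the opposite strand, where the strand setting of the counting was not given. For 10 members (PCNA, FEN1, RRM2, TYMS, CCNB2, AURKA, AURKB, BUB1, CDC20 and MKI67) the annotation names a pseudogene copy, and their values are uncertain to the extent that reads were split or dropped. A small RNA gene lies in an intron of 5 members (PCNA, POLA1, RRM2, CDC25A and TOP2A), and none overlaps an exon of any of the 40.

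The share of negative differences also varied with abundance among all genes. Among all protein coding genes tested, those at 1 to 5 CPM were negative in 44.4%, those at 5 to 25 CPM in 56.0% and those at 25 CPM or more in 67.6%. The members in these classes were negative in 6 of 9 (66.7%), 22 of 28 (78.6%) and 3 of 3. Across the 40 genes the difference had a Spearman's rho of -0.18 with the mean CPM and of -0.21 with the transcript length, given as a description of genes that share the same 4 libraries. All 7 members with transcripts of at least 5000 bases were negative, with a median of -0.30, against 51.3% of 3949 protein coding genes of that length. These members were CENPE, CENPF, KIF11, TOP2A and MKI67 of the spindle role, with POLE and POLA1, so this class largely repeats that role. In the 12137 protein coding genes in the range of the members without CDC25A, the median difference was -0.01 and 51.9% were negative.

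The other genes of the same pathways, a list chosen by textbook role with earlier results known, had mostly negative differences too and no call. Of 117 such genes, 116 passed the filter, and 90 were negative and 26 positive (77.6% negative, median -0.20). The share was 66.4% without CD95L replicate 1 and 69.8% without vector replicate 1, against 43.6% and 46.6% of all genes in these fits. In 45 of them both CD95L libraries lay below both vector libraries and in 8 above, where 19.0% and 16.0% of all genes tested did so. At an unadjusted p of 0.05, 9 were lower and 2 higher in CD95L cells, where 2.52% and 2.85% of all genes tested were, and 0 passed the adjusted test (limma, smallest adjusted p = 0.846), nor did any with edgeR (smallest adjusted p = 0.211). By role, 11 of 19 licensing genes, 13 of 19 DNA synthesis genes, 4 of 4 nucleotide genes, 16 of 18 cyclins and regulators, 14 of 16 mitotic kinase and checkpoint genes and 32 of 40 spindle genes were negative. Their median differences were -0.14, -0.12, -0.23, -0.20, -0.22 and -0.20, in that order. These 40 spindle genes did not stand apart from the other roles, whereas the 7 spindle members had a median of -0.40. The 12 inhibitors of the cycle, such as the CDK inhibitors and the RB family, were 6 negative and 6 positive, with a median of 0.02. This median turned to -0.13 without CD95L replicate 1, where the median of all genes was 0.06. Without CD95L replicate 2 it was -0.09, where that of all genes was -0.08.

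**Figure D4:**
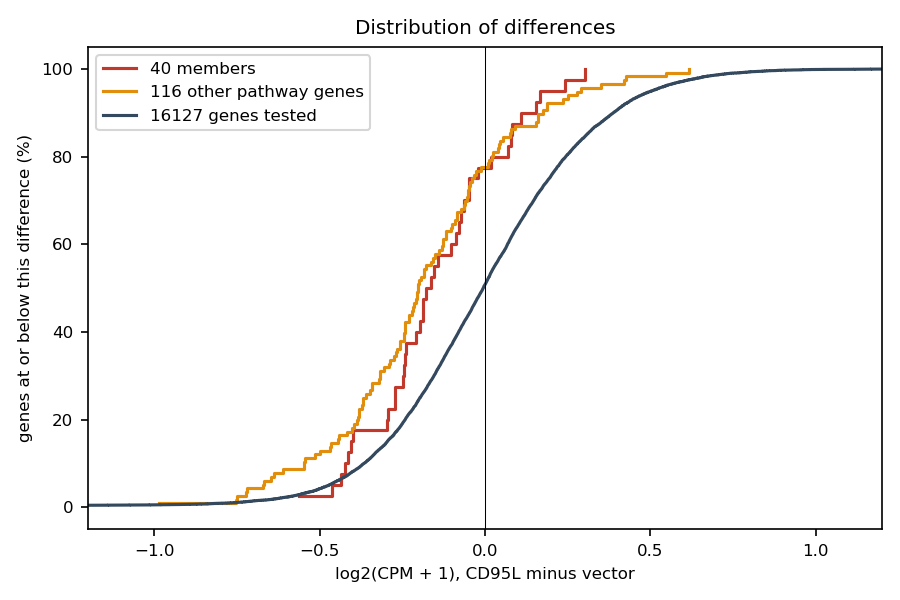
Share of genes, in percent, at or below each difference of log2(CPM + 1), CD95L minus vector, for the 40 members, 116 other pathway genes and all 16127 genes tested. At a difference of 0 the curves stand at 77.5%, 77.6% and 50.8%. Differences beyond -1.2 and 1.2 are not drawn.

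Among these other genes and the inhibitors, the negative differences with the smallest unadjusted p were those of RFC3, KIF15, ZWILCH, CASC5 and UBE2S. RFC3, a clamp loader subunit like RFC4, had 4.41 and 4.80 CPM in CD95L cells, against 8.47 and 7.99 CPM in vector cells (difference -0.72, SE 0.24, limma, adjusted p = 0.846). UBE2S, the enzyme that extends ubiquitin chains on targets of the anaphase promoting complex, had 12.3 and 14.3 CPM in CD95L cells, against 20.4 and 23.0 CPM in vector cells (difference -0.67). KIF15, a spindle motor that acts beside KIF11, had 1.83 and 2.98 CPM in CD95L cells, against 4.13 and 5.25 CPM in vector cells (difference -0.75). The kinetochore genes ZWILCH and CASC5 had differences of -0.72 and -0.67, and in all 5 genes the groups did not overlap.

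The positive differences with the smallest unadjusted p were those of HMMR, SKP2, CDC7, CDKN2D and NDC80. HMMR, a spindle protein that also binds hyaluronan, had 14.8 and 16.0 CPM in CD95L cells, against 10.6 and 9.78 CPM in vector cells (difference 0.55, SE 0.24, limma, adjusted p = 0.914). SKP2, the ubiquitin ligase subunit that directs the CDK inhibitor p27 to degradation, had 10.5 and 16.5 CPM in CD95L cells, against 9.03 and 7.51 CPM in vector cells (difference 0.62, limma, adjusted p = 0.923). Without CD95L replicate 2 this difference was 0.31. CDC7, the kinase that fires licensed origins, had 9.91 and 10.6 CPM in CD95L cells, against 7.18 and 7.67 CPM in vector cells (difference 0.42). CDKN2D, an inhibitor of CDK4 and CDK6, had a difference of 0.39. NDC80, a kinetochore subunit, had 0.42 with overlapping groups, and 0.02 without vector replicate 1.

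MCM7, the ring subunit whose gene also carries the miR-106b-25 cluster in an intron, was listed apart from the 40 genes. It had 16.6 and 18.8 CPM in CD95L cells, against 17.6 and 72.6 CPM in vector cells. Vector replicate 2 alone was high, and the difference of -0.99 did not pass the test (limma, adjusted p = 0.923).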

How the data were processed

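Per the submitters' notes and the study's methods, reads were trimmed with TrimGalore, aligned to hg38 with TopHat (Bowtie2 is also named), counted per gene with HTSeq and tested with edgeR. Tool versions: not given in the sources used here. Values in the deposited table are CPM, which the authors computed per library from all gene reads. Each library sums to 1000000, and 100% of values were whole multiples of 1 read (within 0.01 read), so reads were recovered. Of 26485 genes, 1953 were at 0 throughout. The authors' own comparison columns (mean level, fold change, p-values) were not used.

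The members and lists were chosen with earlier results of these data known. Genes averaging 1 CPM or more were fitted by limma 3.58.1 (R 4.3.3) on log2(CPM + 1), which understates changes of low genes, with group as the only term, and Benjamini-Hochberg adjustment over all 16127 genes (threshold 0.05, two-sided). The study's count test was replaced as the main test because the table is described as CPM, although reads could be recovered. edgeR 4.0.16 and DESeq2 1.42.0 on recovered reads were alternatives, and both called more genes than limma did (1). edgeR called 72 genes (8 higher and 64 lower in CD95L cells) and DESeq2 called 37. The scripts were tested on simulated data. Per-library values were given for each role's most abundant member and its 2 members with the smallest unadjusted p, every member under an unadjusted p of 0.05, and 5 other pathway genes in each direction. Values for further members were added after they were seen. Lengths are those of GENCODE canonical transcripts, and promoters are RefSeq's on GRCh38.p14. Replicates differed beyond counting noise (chi-square per degree of freedom 51.3 in CD95L and 41.9 in vector libraries), so that none was a repeat deposit.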

Additional observations from a re-analysis of the deposited data

How the results depend on the processing

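No member was called under any alternative that kept all 4 libraries. Few of all genes were called there either, from 0 of 16127 (pseudocount of 0.1 CPM) to 80 of 16127 (replicate block). With the 14 alternatives, 17 members stayed negative and 3 (MCM10, CCNE1 and PLK1) positive in every one of the 15 fits that tested them. The other 20 members changed sign in at least 1 fit that left out a library. The median difference of the members was -0.17 and became -0.20 with a pseudocount of 0.1 CPM, -0.14 with upper quartile scaling and -0.19 with DESeq2 on recovered reads. Leaving out 1 library gave -0.21 to -0.12, while the median of all genes moved between -0.08 (without CD95L replicate 2) and 0.06 (without CD95L replicate 1). The summed member level differed by -129 CPM. Leaving out a library gave -259 CPM (without CD95L replicate 2) to 0.922 CPM (without CD95L replicate 1), and leaving out CDC25A, chosen after seeing the data, gave -72.3 CPM.

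The count of genes called was 1. It was 0 with a pseudocount of 0.1 CPM (FASLG, adjusted p = 0.139 by limma) and 0 without the filter (FASLG, adjusted p = 0.257 by limma). It was 5 with TMM factors, 5 with DESeq2 size factors, 29 with a mean-variance trend, 72 with edgeR and 37 with DESeq2. Leaving out a library gave 5 to 83, where a lone library was assumed to vary like the other group. Among the other pathway genes it gave 0 to 1, the 1 being MCM7 without vector replicate 1 (difference -1.98, adjusted p = 0.00488 by limma). With the replicate number as a block the fit called 80 genes and 0 members. Same-numbered libraries did not deviate together (correlation -0.00198 over 16127 genes). No pairing by number was seen, but this correlation alone cannot exclude one. The cause of these shifts was not tested.

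Among the genes given by the rule for named genes, reversed differences were CDC25A at 0.13 without CD95L replicate 1 (-0.41 to 0.13 over the libraries left out), CCNB2 at 0.023 without vector replicate 1 (-0.57 to 0.023) and RRM1 at 0.047 without vector replicate 2 (-0.36 to 0.047). DROSHA reversed to 0.022 with upper quartile scaling and gave -0.21 to 0.18 over the libraries left out (0.18 without CD95L replicate 1 and 0.16 without vector replicate 1). With 2 libraries a group and a median of 140.0 to 194.5 reads per member, differences of the size seen here were not called.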
